A study of Mus musculus with 6 samples.

Results

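The 8 genes Srsf1, Srsf2, Srsf3, Srsf4, Srsf5, Srsf6, Srsf7 and Srsf9 encode SR splicing factors. Their probes were found by gene name, current or older (Srsf or Sfrs), among all non-control probes, and each was taken whatever its values. The genes themselves were chosen with earlier results of these data known. The arrays carried 27946 gene names on 41174 non-control probes, and 18 of these probes belonged to the 8 genes. Of the 18, 17 entered the tests, as did 21051 probes in all. The remaining probe, A_52_P545451 for Srsf3, was not well above background on any of the 6 arrays, with processed signals from 1.70 to 2.39.

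The study asked which RNAs are bound by DAZL in germ cell precursors made in culture. Mouse embryonic stem cells of the V6.5 line (mixed C57BL/6 129SV strain), carrying Dazl-GFP-V5, were cleared of feeder cells and differentiated for 12 days, and the labels call the product primordial germ cells, the embryonic precursors of eggs and sperm. All 3 groups came from such cells. The input group was total RNA. The PABP1 IP group was RNA pulled down with an antibody to the poly(A)-binding protein PABP1. The GFP IP group was RNA pulled down with an antibody to GFP, and so with the tagged DAZL. Both pulldowns followed UV crosslinking, and the authors' condition names carry UV for all 3 groups, input included. Each group had 2 Agilent one-colour arrays. The labels do not say whether the 2 arrays of a group came from separate cultures, and p-values here therefore reflect array-to-array spread alone, possibly of technical origin. The labels name neither a step that sorts the germ cells from the rest of the culture nor the promoter that drives the tagged protein, and the groups analysed here hold no GFP pulldown from untagged cells.

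SR proteins are nuclear RNA-binding proteins with RNA recognition motifs at the amino end and a tail rich in arginine-serine dipeptides. They bind exonic enhancers, help the spliceosome choose splice sites, and several of them shuttle to the cytoplasm and take part in mRNA export and translation. Many SR genes control their own mRNA by including a poison exon that leads to its decay. DAZL is a germ cell RNA-binding protein that acts on the 3′ ends of mRNAs, and PABP1 binds the poly(A) tail of cytoplasmic mRNAs in general.

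Per array, 43379 spots were read, none of them (0) saturated, and 41.49% to 52.56% exceeded background by the scanner software's flag. The 75th percentile of the processed signal ran from 61.3 to 156 over the arrays, so each log2 value below is relative to its own array's 75th percentile. A difference between an IP and the input is therefore a share within the pulled-down RNA and not an amount of RNA recovered. Arrays of a group correlated at 0.98 to 0.991 (Pearson, across probes), and arrays of different groups at 0.861 to 0.923. The arrays lay on 2 slides: slide 1 held both inputs, PABP1 IP replicate 1 and GFP IP replicate 2, and slide 2 held PABP1 IP replicate 2 and GFP IP replicate 1.

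The labelled cell type was checked by its markers. Of 12 germ cell markers on the array, 11 were well above background on both inputs. Among them Pou5f1, Nanog and Sox2 are also expressed by the starting stem cells, and so cannot tell germ cells from stem cells that remained. Whether the other markers can was not tested, and the Dazl signal may include the Dazl-GFP-V5 that the cells carried. Markers of other cells were present too: 6 of 7 cardiac and smooth muscle markers (Myh6 was not above background on any array), 5 of 6 fibroblast markers and 3 of 5 neural markers were above background on both inputs, against 1 of 6 endothelial and blood markers and 0 of 7 visceral endoderm markers. Their summed levels, in units of each array's 75th percentile, differed between groups for some lists and overlapped for others. The neural sum was 13.8 to 15.45 in input, 4.62 to 7.08 in PABP1 IP and 14.66 to 16.89 in GFP IP. It overlapped between input and GFP IP, as the fibroblast sum did between input and PABP1 IP. Single neural markers nevertheless moved both ways in GFP IP against input. Tubb3 was higher (log2 difference 1.79), Nes lower (-2.20), and Sox1 did not pass (-0.95). The muscle sum was 79 to 96 in input, 173 to 189 in PABP1 IP and 29.4 to 39.5 in GFP IP. Its higher level in PABP1 IP was not shared by the list. Of 6 tested muscle markers, 1 was higher than in input (Myl7, 1.53) and 1 lower (Tnni3, -1.47), whereas in GFP IP all 6 were lower. The fibroblast sum was 66.2 to 97.7, 84 to 92.2 and 24.7 to 46.7, and the germ cell sum was 139 to 139.5, 334 to 359 and 200.2 to 219. The endothelial and blood sum was 1.44 to 1.88, 1.0 to 1.02 and 7.77 to 8.51. It was led by Pecam1, the only 1 of the 6 markers above background on both inputs. Cdh5, Kdr and Hba-x were not above background on any array, so this sum mostly reads a single gene. In input and PABP1 IP the germ cell sum was led by Pou5f1 and Ifitm3, and single markers moved both ways: of 11 tested, 5 were higher and 2 lower in PABP1 IP than in input, and 7 were higher and 2 lower in GFP IP than in input. Dazl had log2 differences from input of -1.82 in PABP1 IP and 3.80 in GFP IP, and Ifitm3 had 1.72 and -1.16. The part of the cell mixture in the SR results was not tested, and in RNA from mixed cells fewer cells of a type and less RNA per cell cannot be told apart.

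**Figure D1:**
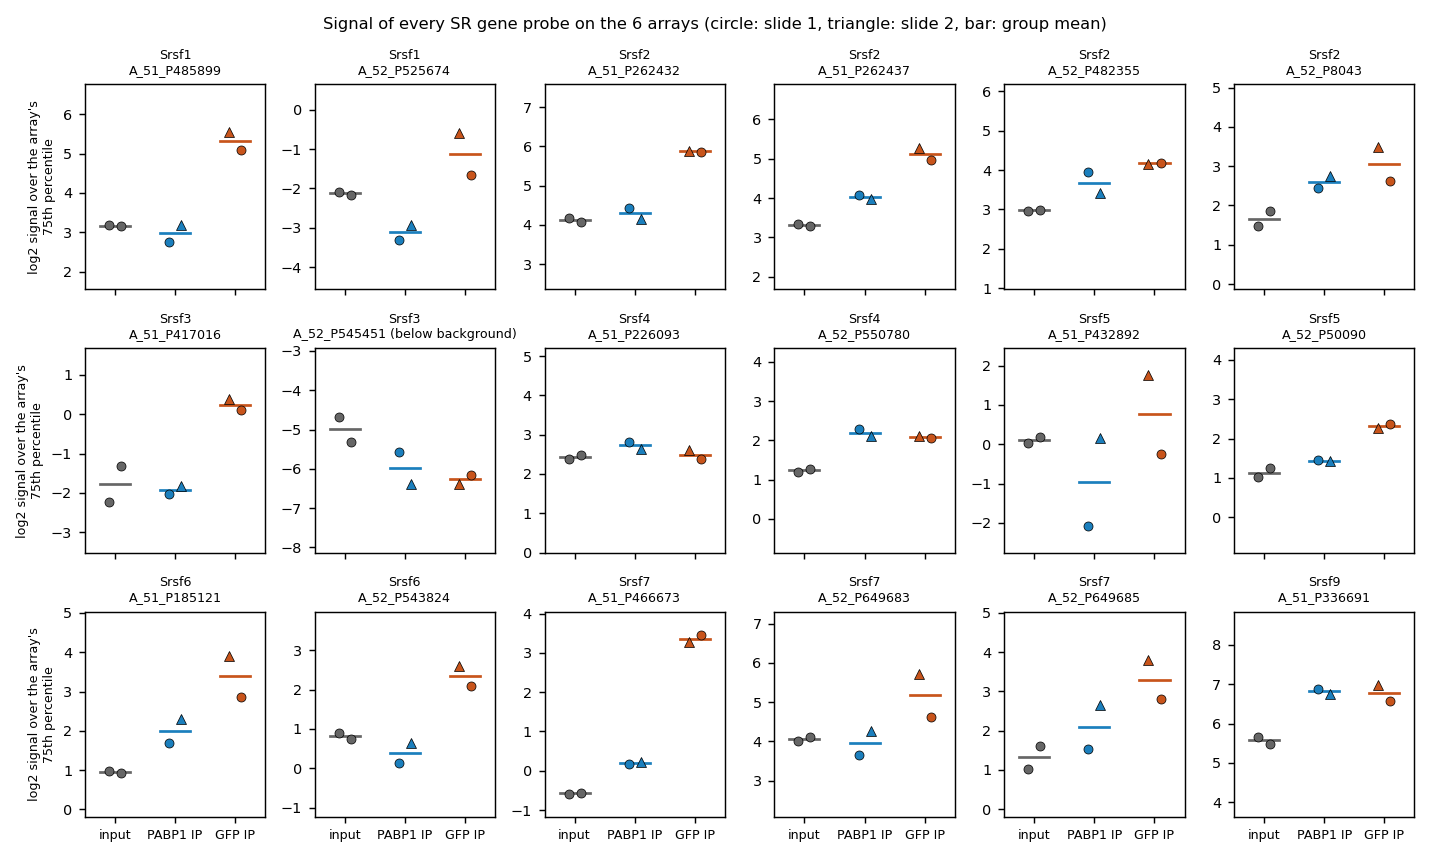
Each panel is 1 of the 18 SR gene probes. Points are arrays (circles slide 1, triangles slide 2) on a log2 scale relative to the array's 75th percentile, bars are group means of 2 arrays, and every panel spans the same number of log2 units. GFP IP lies above input for most probes, the Srsf4 and Srsf9 panels show both IPs close together, and the Srsf5 probe A_51_P432892 splits by slide within each IP.

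RNA of all 8 SR genes was higher in GFP IP than in input by at least 1 probe. Of the 17 tested probes, 13 rose and 0 fell (limma, adjusted p under 0.05), where 20.9% of all tested probes rose and 31.9% fell. By unadjusted p under 0.05, 15 were higher and 0 lower. The median log2 difference was 1.39 over the SR probes and -0.36 over all tested probes, and the SR probes ran from 0.05 to 3.93. Of the 13, 12 rose by at least 2-fold, as did 16.1% of all probes.

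Srsf7 encodes an SR protein with a zinc knuckle that also serves as an mRNA export adaptor. Its probe A_51_P466673 had processed signals of 40.9 and 49.1 in input, 115 and 165 in PABP1 IP, and 1450 and 1700 in GFP IP. Both GFP IP arrays stood far above all the others. The log2 difference from input was 3.93 ± 0.16 (SE, n = 2 arrays per group), a 15.3-fold rise with a limma adjusted p of 0.00142, and it was the largest among the SR probes. Its other probes gave smaller differences. A_52_P649685 had 125 and 223 in input, 297 and 900 in PABP1 IP, and 2070 and 1090 in GFP IP. Its GFP IP arrays were above both inputs, by 1.97 ± 0.51 on the log2 scale (limma adjusted p = 0.025). A_52_P649683 had 980 and 1250, 1290 and 2720, and 7840 and 3860 in the same order, a log2 difference from input of 1.12 ± 0.41 that did not pass (limma adjusted p = 0.0666).

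Srsf3, the smallest SR protein and likewise an export adaptor, had processed signals of 13.0 and 29.1 in input, 25.0 and 39.9 in PABP1 IP, and 197 and 167 in GFP IP on probe A_51_P417016. The GFP IP arrays did not overlap the rest, and 1 of the 2 input arrays was not well above background. The log2 difference from input was 2.03 ± 0.34 (limma adjusted p = 0.00644), and 0.55 with normexp (0.0171). Probe letters are not used here, so whether these probes also match copies of the gene was not tested.

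Srsf2, also called SC35 and a marker protein of nuclear speckles, was read by 4 probes, and all 4 rose in GFP IP. Probe A_51_P262432 had 1110 and 1220 in input, 2220 and 2530 in PABP1 IP, and 8810 and 9070 in GFP IP. Probe A_51_P262437 had 619 and 716, 1720 and 2220, and 5810 and 4850. On both, the GFP IP arrays stood above the PABP1 IP arrays, and those above input, before scaling. Their log2 differences between GFP IP and input were 1.75 ± 0.18 and 1.80 ± 0.18 (both with a limma adjusted p of 0.00221). The other two probes rose by 1.39 ± 0.34 (A_52_P8043) and 1.19 ± 0.23 (A_52_P482355), with limma adjusted p-values of 0.0205 and 0.0096.

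Among the SR proteins with tandem RNA recognition motifs, Srsf1, the founding member and a regulator of splice site choice, was read by 2 probes. A_51_P485899 had processed signals of 557 and 649 in input, 690 and 1290 in PABP1 IP, and 7080 and 5310 in GFP IP. Its GFP IP arrays were well clear of the others, and the log2 difference from input was 2.15 ± 0.25, or 4.45-fold (limma adjusted p = 0.00264). The dim probe A_52_P525674 had 14.5 and 16.3, 10.3 and 18.6, and 99.3 and 49.3, with 1 of 2 arrays well above background in input and in PABP1 IP. It was higher in GFP IP by 0.99 ± 0.38 without passing the threshold (limma adjusted p = 0.0748), and the difference was -0.06 with normexp. It was the only tested SR probe that met the filter through GFP IP alone.

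Srsf6, another splicing regulator with tandem motifs, rose on both probes. A_51_P185121 had 121 and 138 in input, 332 and 705 in PABP1 IP, and 2240 and 1140 in GFP IP. A_52_P543824 had 114 and 121, 112 and 219, and 909 and 667. In both cases each GFP IP array was above every other array. The log2 differences from input were 2.43 ± 0.40 and 1.53 ± 0.27, with limma adjusted p-values of 0.00605 and 0.00733.

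Srsf5 and Srsf4, close relatives of Srsf6, each had probes that disagreed. Srsf5 probe A_52_P50090 had 125 and 171 in input, 280 and 379 in PABP1 IP, and 722 and 801 in GFP IP. The groups did not overlap, and the rise over input was 1.18 ± 0.17 on the log2 scale (limma adjusted p = 0.00413). Srsf5 probe A_51_P432892 had 62.5 and 82.2 in input, 24.1 and 159 in PABP1 IP, and 509 and 132 in GFP IP. Its replicates were far apart within both IPs, and the difference of 0.66 ± 0.93 did not pass (limma adjusted p = 0.572). Srsf4 probe A_52_P550780 had 141 and 176, 494 and 616, and 643 and 647, and rose by 0.84 ± 0.16 (limma adjusted p = 0.00992). Srsf4 probe A_51_P226093 had 321 and 405, 721 and 882, and 911 and 804. After scaling its arrays overlapped, with a log2 difference of 0.05 (95% interval -0.40 to 0.50).

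Srsf9, a small SR protein with a short arginine-serine tail, had 3130 and 3260 in input, 12100 and 15400 in PABP1 IP, and 18800 and 14900 in GFP IP. Both IPs were above input and overlapped each other. The rise of GFP IP over input was 1.19 ± 0.20 (limma adjusted p = 0.007).

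The count of 13 depended on the input arrays: it was 9 without input replicate 1 and 8 without input replicate 2. Calls lost in such fits were Srsf2 A_52_P482355 (adjusted p 0.059 and 0.0537), Srsf2 A_52_P8043 (0.107 and 0.0556), Srsf4 A_52_P550780 (0.0741 and 0.057), Srsf7 A_52_P649685 (0.119 and 0.0597) and, without input replicate 2, Srsf9 (0.0502). Without GFP IP replicate 1 the limma adjusted p was 0.0614 for Srsf2 A_52_P8043 and 0.101 for Srsf7 A_52_P649685. Blocking on the slide gave 14 such probes, where 4792 of all 21051 tested probes rose. Within slide 1 by itself the SR median was 1.23 and that of all probes was -0.32. The share of all calls that were higher was 39.6%, and it was 72.3% when arrays were scaled to the median of all probes, 92.4% with spike-in scaling and 29.5% with normexp background correction. All 17 SR probes kept a positive difference under the median, quantile and spike-in scalings, and 16 under normexp. With the slide as a block 16 were positive, and within slide 1 there were 15 positive and 2 negative.

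**Figure D2:**
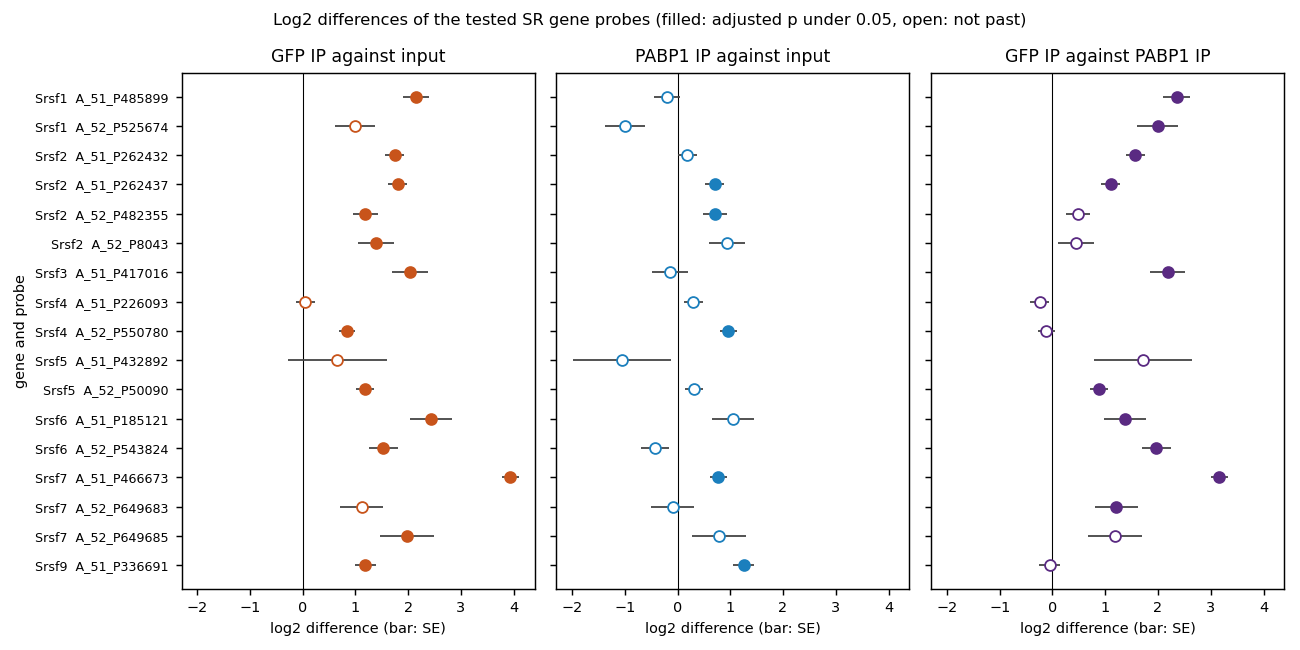
Log2 differences (points) with standard errors (bars) for the 17 tested SR probes in the 3 comparisons, from 2 arrays per group. Filled points passed the adjusted p threshold of 0.05: 13 in GFP IP against input, 5 in PABP1 IP against input and 10 in GFP IP against PABP1 IP.

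In PABP1 IP against input, SR mRNAs lay near the middle of all probes. Rises passed for 5 of the 17 probes, in Srsf2, Srsf4, Srsf7 and Srsf9, and 0 fell (limma, adjusted p under 0.05), where 30.5% of all tested probes rose and 24.2% fell. The SR share of rises is near that background. By unadjusted p under 0.05, 7 were higher and 1 lower. The median log2 difference was 0.31 over the SR probes and 0.12 over all probes, with SR values from -1.06 to 1.25.

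Srsf9 had the largest rise, 1.25 ± 0.20 on the log2 scale or 2.37-fold (limma adjusted p = 0.00518), and it alone among the 5 passed 2-fold. Of all tested probes, 23.2% passed with a rise of at least 2-fold. With quantile normalization Srsf9 rose by 0.63 (limma adjusted p = 0.0268). Srsf4 A_52_P550780 rose by 0.96 ± 0.16 (limma adjusted p = 0.00557) and Srsf7 A_51_P466673 by 0.77 ± 0.16 (0.0113). Srsf2 A_51_P262437 rose by 0.70 ± 0.18 (0.0232) and A_52_P482355 by 0.71 ± 0.23 (0.0445), whereas Srsf2 A_51_P262432 differed by 0.18 (95% interval -0.27 to 0.62). For Srsf1 A_51_P485899 the difference was -0.20 (95% interval -0.82 to 0.42), and for Srsf3 A_51_P417016 it was -0.15 (-1.0 to 0.70). The Srsf6 probes differed in sign, with 1.05 ± 0.40 for A_51_P185121 and -0.43 ± 0.27 for A_52_P543824, and neither passed (limma adjusted p = 0.0712 and 0.221).

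These calls rested on few arrays. The count of 5 was 2 without either input array and 3 without PABP1 IP replicate 1. Srsf2 A_51_P262437 no longer passed without any of the input or PABP1 IP arrays (limma adjusted p from 0.0579 to 0.116), Srsf7 A_51_P466673 without either input (0.0735 and 0.0702), and Srsf2 A_52_P482355 in 5 of the 6 such fits (0.0703 to 0.159). With either GFP IP array left out, Srsf1 A_52_P525674 was called lower (-1.0, limma adjusted p = 0.0176). With the slide as a block 6 probes were higher and 3 lower, the latter being Srsf5 A_51_P432892 (-2.12), Srsf1 A_52_P525674 (-1.36) and Srsf6 A_52_P543824 (-0.68), and the counts within slide 1 were 6 and 3 as well. With the slide block 7478 of all 21051 tested probes were higher and 5651 lower. The count of SR rises was 16 with spike-in scaling, where 17119 of all tested probes rose. That scaling moved the median of all probes in this comparison from 0.12 to 2.36. With normexp the count of SR rises was 10, where 5659 of all probes rose. The share of all calls that were higher was 55.8%, against 97.7% with spike-in scaling.

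**Figure D3:**
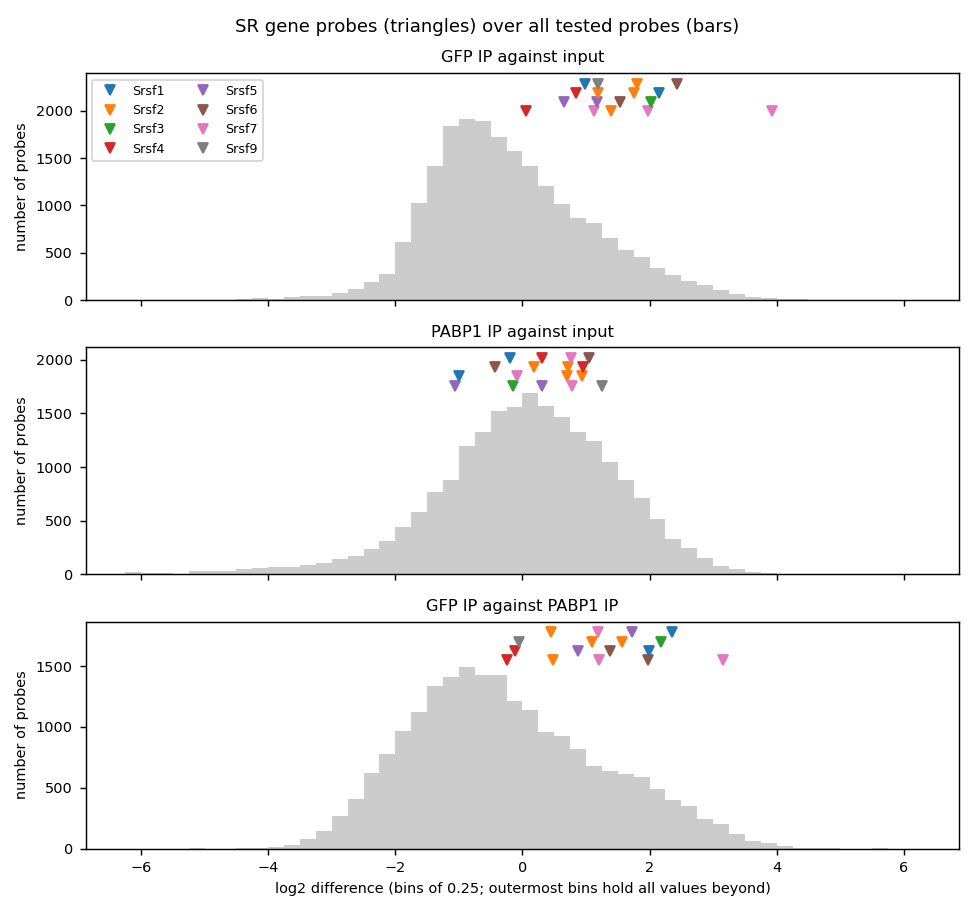
Grey bars give the number of all 21051 tested probes in bins of log2 difference, and triangles mark the 17 SR probes, coloured by gene and staggered only for legibility. Most SR probes sit to the right of the bulk in GFP IP against input (median 1.39) and against PABP1 IP (median 1.21). Those of Srsf4 and Srsf9 lie amid the bulk in GFP IP against PABP1 IP, as does Srsf4 A_51_P226093 in GFP IP against input. In PABP1 IP against input the SR probes sit amid the bulk (median 0.31).

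GFP IP was then set directly against PABP1 IP, which asks what the DAZL pulldown holds beyond the polyadenylated mRNA pulled down by PABP1. These comparisons share arrays, so their values are given side by side and not as separate support. Probes of 6 SR genes were higher in GFP IP: Srsf1, Srsf2, Srsf3, Srsf5, Srsf6 and Srsf7. In all 10 of 17 probes rose and 0 fell (limma, adjusted p under 0.05; the counts were 10 and 0 by unadjusted p), where 25.0% of all tested probes rose and 37.6% fell. The median log2 difference was 1.21 over the SR probes and -0.43 over all probes. Of the 10, 9 rose by at least 2-fold, as did 20% of all tested probes.

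Srsf7 A_51_P466673 was again the highest, at 3.16 ± 0.16 or 8.97-fold (limma adjusted p = 0.000536). Srsf1 followed with 2.35 ± 0.25 on A_51_P485899 (limma adjusted p = 0.00102), whereas its dim probe A_52_P525674, kept only because both GFP IP arrays were above background, gave 1.99 ± 0.38 (0.00689) and did not pass with normexp (0.51, 0.0585). Leaving that probe out, 9 of 16 rose. Srsf3 A_51_P417016 rose by 2.18 ± 0.34 (0.00343), or by 0.92 with normexp (0.000869), and the Srsf6 probes by 1.97 ± 0.27 on A_52_P543824 (0.00218) and 1.38 ± 0.40 on A_51_P185121 (0.0285). For Srsf1 A_51_P485899 and Srsf3 A_51_P417016 the PABP1 IP and input arrays overlapped, while both GFP IP arrays lay above them. For Srsf2, A_51_P262432 and A_51_P262437 rose by 1.57 ± 0.18 and 1.10 ± 0.18 (0.00126 and 0.0044), and the order was GFP IP, PABP1 IP, input on A_51_P262437. Srsf5 A_52_P50090 rose by 0.88 ± 0.17 (0.00694).

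Srsf4 and Srsf9 had no probe past the threshold here. The log2 difference was -0.05 for Srsf9 (95% interval -0.57 to 0.46; limma adjusted p = 0.835), -0.12 for Srsf4 A_52_P550780 (-0.53 to 0.28) and -0.24 for Srsf4 A_51_P226093 (-0.70 to 0.21). These intervals leave out a 2-fold difference either way under this scaling. With quantile normalization Srsf9 was higher in GFP IP, by 1.13 (limma adjusted p = 0.00371).

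The direction of this comparison depends on the scale. With spike-in scaling the median of all probes was -1.75 and that of the SR probes was -0.12. Of the SR probes 1 was higher and 3 were lower, those of Srsf4 (-1.57 and -1.45) and Srsf9 (-1.38). Of all 21051 tested probes 912 were higher and 13047 lower. The SR median stood 1.64 above that of all probes, a gap that scaling to the median or the spike-ins cannot change because both shift all probes of an array alike. It was 1.87 with quantile normalization and 1.29 with normexp. The share of all calls that were higher was 39.9%, against 53.6% with scaling to the median and 6.53% with spike-in scaling. Srsf6 A_51_P185121 did not pass without either input (limma adjusted p = 0.0531 each), without PABP1 IP replicate 1 (0.124) or without GFP IP replicate 1 (0.0836), and Srsf7 A_52_P649683 (1.21 ± 0.41, 0.0469) did not pass in 5 of the 6 fits that leave out an array (0.0553 to 0.187).

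**Figure D4:**
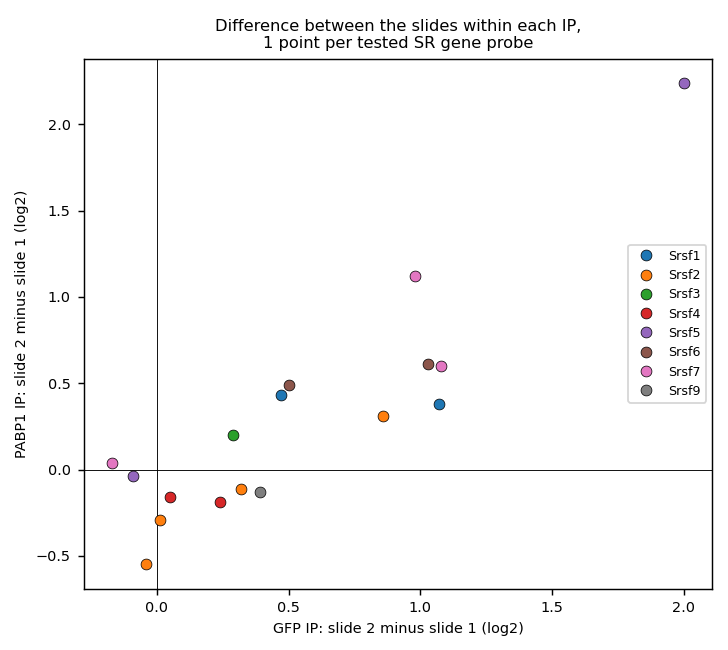
Each point is a tested SR probe. The axes give the log2 difference between the slide 2 and slide 1 arrays within GFP IP (horizontal) and within PABP1 IP (vertical). Srsf5 A_51_P432892 lies at 2.0 and 2.24, and most other probes within 1 log2 unit of 0 on both axes.

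Some of the spread within the IPs followed the slide. Srsf5 A_51_P432892 was higher on slide 2 by 2.0 in GFP IP and by 2.24 in PABP1 IP, and in a fit with group and slide the slide term was 2.12 ± 0.15 (limma adjusted p = 0.0257). It was the only SR probe called for the slide, where 1.79% of all tested probes were called higher and 3.19% lower on slide 2. Next came Srsf7 A_52_P649685 (slide term 1.05 ± 0.24), Srsf7 A_52_P649683 (0.84 ± 0.17) and Srsf6 A_51_P185121 (0.82 ± 0.16), with limma adjusted p-values of 0.0806, 0.0703 and 0.0656. The SR median slide term was 0.25, against -0.08 over all probes. For Srsf5 and Srsf7 a sister probe on the same arrays showed no such split, with slide terms of -0.07 ± 0.15 for Srsf5 A_52_P50090 and -0.06 ± 0.14 for Srsf7 A_51_P466673. With the slide as a block, Srsf5 A_51_P432892 differed between GFP IP and PABP1 IP by 1.72 (limma adjusted p = 0.000725), and by 1.84 within slide 1 and 1.60 within slide 2.

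The comparison of the IPs was also read within each slide. Srsf7 A_51_P466673 was higher in GFP IP than in PABP1 IP by 3.27 on slide 1 and 3.06 on slide 2. The same differences were 2.33 and 2.38 for Srsf1 A_51_P485899, 2.13 and 2.22 for Srsf3 A_51_P417016, and 1.96 and 1.97 for Srsf6 A_52_P543824. They lay further apart for Srsf1 A_52_P525674 (1.65 and 2.34), Srsf6 A_51_P185121 (1.17 and 1.59) and Srsf7 A_52_P649683 (0.97 and 1.45). For Srsf9 they were -0.31 and 0.21. Input was on slide 1 alone, and there GFP IP exceeded input by 4.02 for Srsf7 A_51_P466673, 1.92 for Srsf1 A_51_P485899 and 1.88 for Srsf3.

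For Srsf3 (NM_013663) the authors' deposited table gave means of 2.15 in input, 3.02 in PABP1 IP and 27.0 in GFP IP. For Srsf6 (NM_026499) the authors' deposited table gave 5.09, 9.09 and 72.0, and for Srsf9 it gave 234, 486 and 521. The authors' deposited table thus has PABP1 IP above input for Srsf3 and Srsf6, where the scanner values of these probes gave -0.15 and -0.43 on the log2 scale without passing. For Srsf1 the authors' deposited table also has PABP1 IP above input, by 1.82-fold and 1.4-fold. The scanner values of its probes gave -0.20 and -1.0 without passing. The authors' values are median-normalized. Scaling the scanner arrays to the median moved the median of all probes in this comparison from 0.12 to 0.31, and the cause of the disagreement was not tested. For Srsf4 the authors' deposited table gave 14.9, 12.9 and 12.9 on 1 row, and 26.5, 37.4 and 34.0 on the other. For Srsf2 the authors' deposited table has PABP1 IP over input from 0.647 to 7.17 across its rows. The authors' deposited table places Srsf1 and Srsf2 on chromosome 11, Srsf3 and Srsf7 on 17, Srsf4 on 4, Srsf5 on 12, Srsf6 on 2 and Srsf9 on 5. These means could not be rebuilt from the scanner values, with which they correlated at 0.821 to 0.898 on arrays of their own group.

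A wider list held 30 splicing proteins that have arginine-serine domains or work beside SR proteins. Of 28 tested genes of this list, each read by its brightest probe, 5 were higher and 12 lower in GFP IP than in input, with a median log2 difference of -0.60. Over all tested probes 20.9% were higher and 31.9% lower, with a median of -0.36, so the share of rises in the list is near the background. Rnps1, a component of the exon junction complex, had 2.68 ± 0.70 and Tra2b, a splicing activator, 2.61 ± 0.16, though the other Tra2b probe gave 0.07. U2af2, the large U2AF subunit that binds the polypyrimidine tract, had 1.39 ± 0.35. Rnps1 and U2af2 no longer passed without either input array or without GFP IP replicate 1 (limma adjusted p from 0.0684 to 0.109), nor did U2af2 without GFP IP replicate 2 (0.0734). Among those lower were Luc7l3 (-2.52 ± 0.25), Pnn (-1.77 ± 0.24) and Scaf11 (-1.75 ± 0.19). With spike-in scaling Pnn (-0.85) and Scaf11 (-0.84) did not pass (limma adjusted p = 0.312 and 0.325).

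In PABP1 IP against input, 2 of these 28 genes were higher, U2af1 (1.12 ± 0.21) and Tra2b (1.04 ± 0.16, the other probe -1.39), and 18 were lower, with a median of -1.11. Of all tested probes 30.5% were higher and 24.2% lower, with a median of 0.12. Son, a large nuclear speckle protein, had -4.31 ± 0.18 on its brightest probe and -1.25 and -0.37 on the others, and Srek1 had -4.0 ± 0.45, with -2.18 and -0.89 on its others. U2af1 did not pass with quantile normalization (0.40, limma adjusted p = 0.142) or without input replicate 2 (0.0582). With spike-in scaling the count turned to 13 higher and 2 lower, and the list's median was 1.23 below that of all probes, a gap that this scaling cannot change. In GFP IP against PABP1 IP 13 were higher and 3 lower, with a median of 0.59, where 25.0% of all tested probes were higher and 37.6% lower with a median of -0.43. They were led by Srek1 (3.96 ± 0.45), Son (3.0 ± 0.18, with 1.01 and 1.38 on the other probes) and Bclaf1 (2.72 ± 0.20, with 2.49, 2.38 and 0.21 on the others). With spike-in scaling that count was 3 higher and 11 lower.

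Of the 10 kinases and importers that act on SR proteins, 9 were tested. In GFP IP against input 2 were higher and 4 lower, where 20.9% of all tested probes were higher and 31.9% lower. Among the CDC2-like kinases, Clk1 had -2.20 ± 0.25 (-1.69 on its other probe), and Clk2 had 0.79 ± 0.17 on its brightest probe and -0.02 on the other. Clk2 did not pass without either input array (limma adjusted p = 0.0854 and 0.0783), without GFP IP replicate 1 (0.0629) or with normexp (0.22). Tnpo3, the importin that carries SR proteins into the nucleus, had -1.58 ± 0.18 on its brightest probe and 0.23 on the other. With spike-in scaling neither Clk1 (-1.29) nor Tnpo3 (-0.67) passed (limma adjusted p = 0.0907 and 0.458). In PABP1 IP against input 1 was higher and 7 lower, and in GFP IP against PABP1 IP 3 were higher and 0 lower, among them Srpk2, an SR protein kinase (2.46 ± 0.29 on its brightest probe, 0.14 and 0.44 on the others). Of all tested probes, 30.5% were higher and 24.2% lower in the former comparison, and 25.0% and 37.6% in the latter. With spike-in scaling these counts were 5 and 0, and 0 and 5, and Srpk2 had 1.13 (limma adjusted p = 0.0781).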

How the data were processed

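RNA from 6 samples (2 input, 2 PABP1 IP, 2 GFP IP) was labelled with Cy3 and hybridised to Agilent mouse 4x44K one-colour arrays. The scanner files were made with Feature Extraction 9.1.3.1, per the file headers, and hold its background-subtracted processed intensity. The flags for background, saturation and outlier spots come from the same deposited files. Per the file headers, the authors' deposited table holds median-normalized mean signal values and their SEM per group, and the deposited quality score of that table was not used. The genome build is not given in the sources used here.

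Log2 processed signals had each array's 75th percentile subtracted. Outlier spots removed 23 probes. A probe was kept where some group had both of its arrays well above background (21051 probes). limma 3.58.1 in R 4.3.3 was fitted to the 6 arrays together, by group alone (3 residual degrees of freedom), and p-values were adjusted by Benjamini-Hochberg over all kept probes. Every probe stayed separate. In the wider lists each gene was read by its brightest kept probe, and the 3 largest changes past the threshold in each direction set which genes could be named. Names were matched to RefSeq through an accession for 22951 probes and through a shared name for 4521. The fit was tested on simulated data. The members and lists were chosen with earlier results of these data known. Alternatives covered scaling, background, the filter, slide, pairing and leaving out each array. With 2 arrays a group, their number limits the precision.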

Additional observations from a re-analysis of the deposited data

How the results depend on the processing

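The changes below are given with the value under the setting named, and the cause was not tested. In GFP IP against input, 11124 of all probes were called, with 5908 under spike-in scaling, 21628 with no filter on dim probes (where more probes were tested) and 5655 to 11320 when an array was left out, and the SR probes that rose (13) numbered 8 to 15 when an array was left out. In PABP1 IP against input, all calls (11516) came to 17521 with spike-in scaling and 7473 to 11280 without an array. The SR rises there (5) numbered 3 with quantile normalization, 16 with spike-in scaling, 10 with normexp, 2 with no filter and 2 to 6 without an array, and the SR falls (0) numbered 1 with normexp, 3 with the slide as a block, 3 within slide 1 and 0 to 1 without an array. In GFP IP against PABP1 IP, SR rises (10) numbered 1 and falls (0) numbered 3 with spike-in scaling, which reversed Srsf2 A_51_P262437 (-0.23), Srsf5 A_52_P50090 (-0.45) and Srsf7 A_52_P649683 (-0.12). With 1 array left out, the lone array of that group is assumed to vary like the other groups. Same-numbered arrays did not deviate together (correlations of 0.154, -0.02 and -0.624 for input with PABP1 IP, input with GFP IP and PABP1 IP with GFP IP). With the number as a replicate block, 11, 4 and 8 SR probes rose in the 3 comparisons in the order above. Of all 21051 tested probes, 3845, 5639 and 4792 rose in the same fits. A crossed pairing of the 2 IPs, chosen after seeing the data and equal to the slides, gave 12 SR rises. In it 6011 of all probes were higher and 9860 lower. Dim probes limit Srsf1 A_52_P525674 and Srsf3.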

Other observations

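For each SR gene's brightest probe, the gene outside the lists with the nearest pattern over the 6 arrays was found by Euclidean distance between centred log2 values. It was Hnrpa0 for Srsf2 (distance 0.16), an hnRNP gene under its older name, with log2 differences of 1.78 in GFP IP and 0.23 in PABP1 IP against input. It was Pcbp1, which encodes a poly(C)-binding protein, for Srsf6 (0.28), with 2.40 and 0.99. The nearest were Atp2c1 for Srsf1 (0.30), Rhobtb3 for Srsf3 (0.48), Ppp1r16a for Srsf4 (0.18), Mafg for Srsf5 (0.20), Cd8b1 for Srsf7 (0.28) and Gna12 for Srsf9 (0.22). The brightest probes of Srsf4 (A_51_P226093, 0.05) and Srsf7 (A_52_P649683, 1.12) did not pass in GFP IP against input. There Cd8b1 had 0.91. These neighbours are descriptions over 6 arrays. They were chosen from the tested genes with conventional symbols, leaving out predicted genes and names that are clone or accession numbers.

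For Srsf6 (AK004831) the authors' deposited table gave means of 2.17 in input, 11.8 in PABP1 IP and 54.3 in GFP IP, and the scanner values of that accession's probe, A_51_P185121, differed from input by 1.05 and 2.43 on the log2 scale. For Srsf2 (U14648) the authors' deposited table gave 37.1, 49.4 and 217.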
